A study of Mus musculus with 12 samples.

Results

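The Hox genes of the 4 mouse clusters were followed in embryonic stem (ES) cells that had been switched towards neurons by the transcription factor Neurog1. Members were all genes whose single annotated symbol was Hoxa, Hoxb, Hoxc or Hoxd followed by a number, which gave 33 of the 18193 genes with a probe set of their own: 9 in Hoxa, 9 in Hoxb, 7 in Hoxc and 8 in Hoxd. Hox genes with no probe set that carried their symbol alone were not analysed here. Each gene was read from its probe set with the highest mean over the 12 arrays.

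The cells were E14 (Ainv15) ES cells of 129P2/OlaHsd origin that carry a doxycycline-inducible transgene for Neurog1, a proneural basic helix-loop-helix factor. All 4 groups were kept in medium with serum, leukaemia inhibitory factor, puromycin and G418. One group was uninduced (0 h), and the others received doxycycline at 1 ug/ml for 24, 48 or 72 h. Each group held 3 biological replicates, each on 1 Affymetrix array. The sources used here do not give the number of clones, and p-values measure the spread between these arrays alone. No uninduced array was taken at the later times, so the transgene, the drug and the time in culture cannot be told apart.

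The Neurog1 signal was between 4.53 and 18.7 on the uninduced arrays and between 465 and 1152 on the induced ones. All 12 ES cell markers were lower than in uninduced cells at 48 h and at 72 h, and 13 of 14 neuron markers were higher at both times. The median signal of an array ran from 19.5 to 32.8. The array of replicate 1 at 24 h stood apart, with a correlation of 0.787 to 0.812 with the other arrays of its group over the genes, against at least 0.961 within the other groups.

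Hox genes encode homeodomain transcription factors that give cells their place along the head-to-tail axis. They lie in clusters, and genes at one end (low paralogue numbers) are switched on earlier and further towards the head than genes at the other end. In the embryo, low-numbered Hox genes mark the hindbrain and upper spinal cord, and higher numbers mark lower levels of the spinal cord. Retinoic acid switches on the low-numbered end directly, Cdx factors and Wnt and FGF signals act on the middle and high-numbered genes, and Polycomb complexes keep the clusters silent in ES cells. Hox proteins bind DNA with cofactors of the TALE class, the Pbx, Meis and Pknox proteins.

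The start regions of 4 genes show what kinds of sequence lie beside the genes that moved most differently. Each window holds 250 bases before and 50 bases after the annotated start, from RefSeq on GRCm38.p6, written 5′ to 3′ on the gene's own strand. Hoxa2 (chr6:52164782-52165081, minus strand) and Hoxb1 (chr11:96365508-96365807, plus strand) rose and are low-numbered genes of the hindbrain. Hoxb4 (chr11:96318017-96318316, plus strand) is a central gene that rose, and Hoxd13 (chr2:74667975-74668274, plus strand) lies at the far end of its cluster and rose at 24 h alone. Capitals mark matches on either strand to the E-box bound by Neurog factors (CAGATG), the core motif of retinoic acid receptors (AGGTCA), a Cdx core (TTTATG) or a Pbx-Hox site (TGATNNAT).
Hoxa2: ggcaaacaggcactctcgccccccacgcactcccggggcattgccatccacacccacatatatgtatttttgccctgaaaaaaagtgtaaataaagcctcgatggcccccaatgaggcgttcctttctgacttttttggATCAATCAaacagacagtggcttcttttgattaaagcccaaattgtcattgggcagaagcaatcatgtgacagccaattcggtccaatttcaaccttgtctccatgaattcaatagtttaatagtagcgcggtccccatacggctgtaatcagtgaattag
Hoxb1: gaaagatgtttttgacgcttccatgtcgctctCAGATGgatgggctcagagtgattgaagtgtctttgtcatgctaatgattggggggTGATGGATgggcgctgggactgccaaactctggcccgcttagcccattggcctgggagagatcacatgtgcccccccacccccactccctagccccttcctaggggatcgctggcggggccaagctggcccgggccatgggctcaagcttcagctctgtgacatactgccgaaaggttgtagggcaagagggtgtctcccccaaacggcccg
Hoxb4: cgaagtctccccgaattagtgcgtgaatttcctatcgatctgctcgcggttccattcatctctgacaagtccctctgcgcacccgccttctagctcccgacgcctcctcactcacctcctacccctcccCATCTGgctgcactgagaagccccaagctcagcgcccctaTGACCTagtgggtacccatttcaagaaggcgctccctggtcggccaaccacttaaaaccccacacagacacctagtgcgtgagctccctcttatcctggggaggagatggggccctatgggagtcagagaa
Hoxd13: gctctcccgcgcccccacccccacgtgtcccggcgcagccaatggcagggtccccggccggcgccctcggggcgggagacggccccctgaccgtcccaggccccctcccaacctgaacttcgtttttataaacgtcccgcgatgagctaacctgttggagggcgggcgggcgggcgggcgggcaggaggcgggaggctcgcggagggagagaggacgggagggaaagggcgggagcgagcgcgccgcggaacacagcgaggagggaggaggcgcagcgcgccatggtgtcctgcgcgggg
The Hoxa2 window held 1 match, to the Pbx-Hox letters on the other strand, and the Hoxb1 window held CAGATG and a Pbx-Hox match. In the Hoxb4 window, both CAGATG and AGGTCA were found on the other strand. The Hoxd13 window held none of these letters.

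Windows were at hand for 19 Hox genes (21 windows). CAGATG was present in 2 of the 21, those of Hoxb1 and Hoxb4, against 17.2% of the 32851 mouse windows of the same length. AGGTCA was present in 6 of the 21 (Hoxa5, Hoxb4, Hoxc4, Hoxd3, Hoxd8 and Hoxd10) against 16.3% of all, and TTTATG in 3 (Hoxa7, Hoxd3 and Hoxd11) against 11.9%. TGATNNAT, a motif added after the others, was present in 3 (Hoxa2, Hoxb1 and Hoxd11) against 8.85%. The general E-box CANNTG, which contains CAGATG, was present in 15 of the 21 and in 72.3% of all windows. The retinoic acid element known as DR5, a repeat of that core, was in no Hox window and in 0.00913% of all windows. A match describes letters in the window and not a bound site.

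In uninduced cells the clusters were close to silent. On the uninduced arrays, 30 of the 33 genes never exceeded the array's median, and without Hoxa5 the signals of the other 32 genes ran from 0.266 to 48.8 with a median of 5.80. After induction single genes took different courses. Hoxa2, Hoxa3, Hoxb1, Hoxb2, Hoxb3 and Hoxb4 rose within 48 h, Hoxd8 rose with them, Hoxc13 and Hoxd13 rose at 24 h and fell again, and most genes of groups 9 to 13 stayed dim. Between 9 and 14 genes exceeded the array's median on the 24 h arrays. At 48 h and at 72 h, 9 genes did so on the arrays of replicates 1 and 2, while replicate 3 had 19 and 20.

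Differences were tested on log2(signal + 16), a scale that understates the change of dim genes. A gene was tested where it exceeded the array's median on all 3 arrays of some group, which left 11806 genes and 11 of the 33 Hox genes, and it was called at an adjusted p under 0.05. Hoxa5 passed in every group. The other 10 passed through an induced group alone and were thus bound to be brighter there, so their counts below are descriptions of the genes and no measure of the clusters as a whole.

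At 24 h, 5 Hox genes were called higher than in uninduced cells and 0 lower, where 8.12% of all genes tested were called higher and 3.18% lower. The 5 were Hoxa2, Hoxb1, Hoxb2, Hoxc13 and Hoxd13. At 48 h, 7 were called higher and 0 lower (22.6% and 14.0% of all genes): Hoxa2, Hoxa3, Hoxb1, Hoxb2, Hoxb3, Hoxb4 and Hoxd8. The 72 h arrays gave the same genes without Hoxb1, 6 higher and 0 lower (25.3% and 18.6% of all genes). Over all 33 Hox genes, dim ones included, the median log2 difference rose along the course from 0.29 to 0.48 and then 0.70. The 11806 genes tested had medians of 0.10, 0.12 and 0.09 in the same comparisons, which share their uninduced arrays. That set leaves out genes that failed the filter, so it is unlike the 33 Hox genes. A median over all genes, dim ones included, was not computed.

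From 24 h to 48 h, Hoxa2 rose further, and Hoxc13 and Hoxd13 fell (1 called higher and 2 lower, against 10.3% and 7.55% of all genes). From 48 h to 72 h no Hox gene was called in either direction with limma, against 0.644% and 0.152% of all genes. In that step, 2 Hox genes were higher and 1 was lower at an unadjusted p under 0.05. Hoxb1, the lower one, was called when limma was fitted to the 6 arrays of that step alone, and Hoxb1 and Hoxc6 were called when arrays were weighted by quality.

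**Figure D1:**
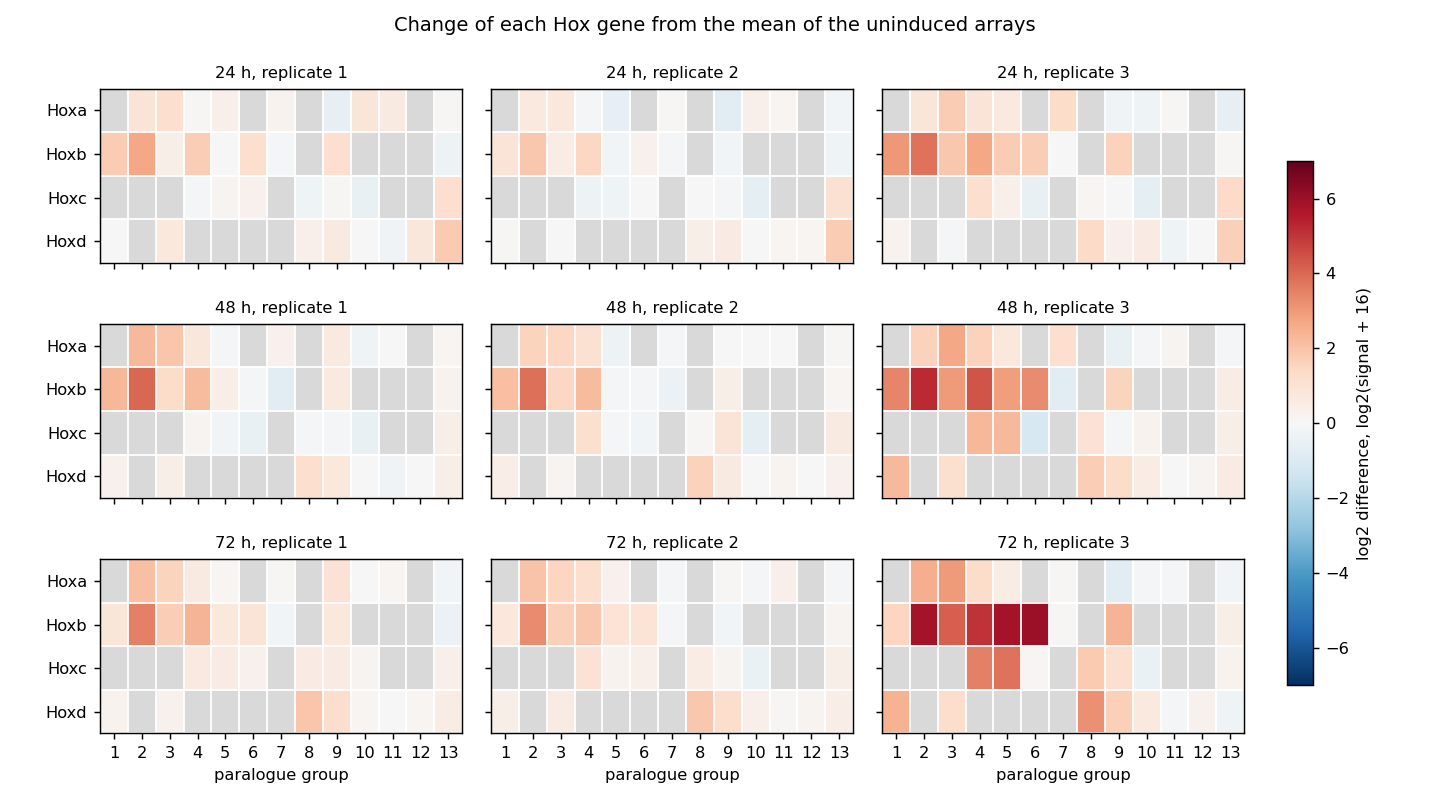
Change of each of the 33 Hox genes on each induced array from the mean of the 3 uninduced arrays, as a log2 difference of signal + 16 (colour). Rows are clusters, columns are paralogue groups from 1 to 13, and grey tiles are positions with no gene or no gene analysed. The low-numbered end of Hoxb is raised on every induced array, and Hoxc13 and Hoxd13 stand out at 24 h. Groups 5 and 6 of Hoxb rise more on the replicate 3 arrays than on those of replicates 1 and 2. On the 72 h array of replicate 3, 20 genes are above the array's median.

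The map of the clusters shows both the position of the genes that rose and the difference between replicates. The 7 genes called at 48 h were 4 of 4 tested in Hoxb, 2 of 3 in Hoxa, 1 of 2 in Hoxd and 0 of 2 in Hoxc. Of all genes tested, 22.6% were called higher at that time. The Hox genes tested, apart from Hoxa5, passed the filter through an induced group alone, so the split between clusters partly repeats the filter.

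Hoxb2, a hindbrain gene, had the largest differences among the Hox genes tested. Its signal was 5.29, 2.15 and 4.10 on the uninduced arrays of replicates 1, 2 and 3. It was 115, 57.1 and 259 at 24 h, 302, 271 and 728 at 48 h, and 211, 183 and 1127 at 72 h. Every induced array was above every uninduced one, and replicate 3 was the highest at each induced time. The difference from uninduced cells was 2.80 ± 0.63 (SE, 3 against 3 arrays) at 24 h, with an adjusted p of 0.0131. It was 4.37 ± 0.63 at 48 h (adjusted p = 0.000197) and 4.23 ± 0.63 at 72 h (adjusted p = 0.000178). With a pseudocount of 64 the 24 h difference was 1.50 with an adjusted p of 0.0948.

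Hoxb1, the marker of rhombomere 4 and an early retinoic acid target, went up and came down. Its signals were 2.27, 9.45 and 12.8 in uninduced cells, 66.4, 28.2 and 181 at 24 h, 102, 85.1 and 236 at 48 h, and 26.5, 24.0 and 52.5 at 72 h. No 72 h array reached the lowest 48 h array. Hoxb1 was 1.92 ± 0.49 higher than in uninduced cells at 24 h (adjusted p = 0.0243) and 2.60 ± 0.49 higher at 48 h (adjusted p = 0.00124). The difference at 72 h was 1.04 ± 0.49 with an adjusted p of 0.102, and the step from 48 h to 72 h was -1.56 ± 0.49 with an adjusted p of 0.224. The 24 h call was lost without replicate 3 of the 24 h arrays (1.35, adjusted p = 0.0572) and without any 1 of the uninduced arrays (adjusted p from 0.0519 to 0.103).

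Hoxb3 and Hoxb4, which mark the lower hindbrain and upper spinal cord, were called higher at 48 h and at 72 h, and the step between those times was called for neither (0.63 ± 0.64 and 0.16 ± 0.76). Hoxb3 had signals of 9.50, 9.55 and 20.5 in uninduced cells, 22.5, 25.5 and 89.5 at 24 h, 54.4, 63.5 and 209 at 48 h, and 80.7, 76.3 and 510 at 72 h. The groups at 48 h and 72 h lay above all uninduced arrays, with differences of 1.91 ± 0.64 (adjusted p = 0.0343) and 2.54 ± 0.64 (adjusted p = 0.00649). The 48 h call of Hoxb3 was lost in 7 of 23 alternative fits, among them those without replicate 3 (1.38, adjusted p = 0.143) or replicate 2 (2.13, adjusted p = 0.0513) of the 48 h arrays and without any 1 of the uninduced arrays (adjusted p from 0.0572 to 0.0972). Its second probe set was dimmer and showed the same order, from 3.08 to 5.96 in uninduced cells and 34.3, 22.5 and 129 at 72 h.

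Hoxb4 gave signals of 1.64, 6.79 and 1.36 in uninduced cells, 46.2, 35.3 and 107 at 24 h, 71.2, 72.3 and 395 at 48 h, and 82.1, 53.6 and 627 at 72 h. All induced arrays were above all uninduced arrays. The differences were 2.94 ± 0.76 at 48 h (adjusted p = 0.00879) and 3.10 ± 0.76 at 72 h (adjusted p = 0.00519), and the 24 h difference was 1.94 ± 0.76 with an adjusted p of 0.122. Without the 4 arrays numbered 3, Hoxb4 was called at 24 h (1.49, adjusted p = 0.0297), and its 72 h difference was 2.04 (adjusted p = 0.00134). A second Hoxb4 probe set ran from 0.437 to 4.80 before induction and measured 35.5, 28.3 and 229 at 72 h.

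Hoxb5 and Hoxb6, genes of the cervical and thoracic spinal cord, were not tested, because they did not exceed the median on all 3 arrays of any group. Hoxb5 signals were 1.62, 7.20 and 4.13 in uninduced cells, 3.63, 1.49 and 54.4 at 24 h, 12.3, 2.81 and 138 at 48 h, and 18.0, 23.4 and 1141 at 72 h. Hoxb6 signals were 1.97, 3.98 and 1.83 in uninduced cells, 25.7, 7.13 and 45.4 at 24 h, 1.71, 1.62 and 166 at 48 h, and 18.7, 19.7 and 1175 at 72 h. Both genes were far brighter on the replicate 3 array at 48 h and 72 h than on the others. At 72 h, replicates 1 and 2 also lay above the uninduced mean, by 0.75 and 0.96 for Hoxb5 and by 0.90 and 0.94 for Hoxb6 on the log2 scale. Under a wider filter, chosen after the data were seen, that tested Hoxa9, Hoxb5, Hoxb6, Hoxb9 and Hoxc4 too, these 5 genes were called in no comparison, with adjusted p-values from 0.0631 upward. Their differences at 72 h were 2.52 ± 1.14 for Hoxb5 (adjusted p = 0.0950) and 2.62 ± 1.17 for Hoxb6 (adjusted p = 0.0923).

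The 3 remaining Hoxb genes lie towards the far end of the cluster. Hoxb9 ran from 2.09 to 11.3 in uninduced cells and reached 46.0 to 93.7 on the induced arrays of replicate 3, where the other replicates had 2.28 to 32.0. Hoxb7 stayed under the median everywhere, with a highest signal of 24.9, and Hoxb13 did too, with a highest signal of 17.9. A probe set that carries the symbols of both Hoxb7 and Hoxb8 was outside the rule. It gave 2.35 to 14.5 in uninduced cells and 46.1, 33.8 and 482 at 72 h.

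**Figure D2:**
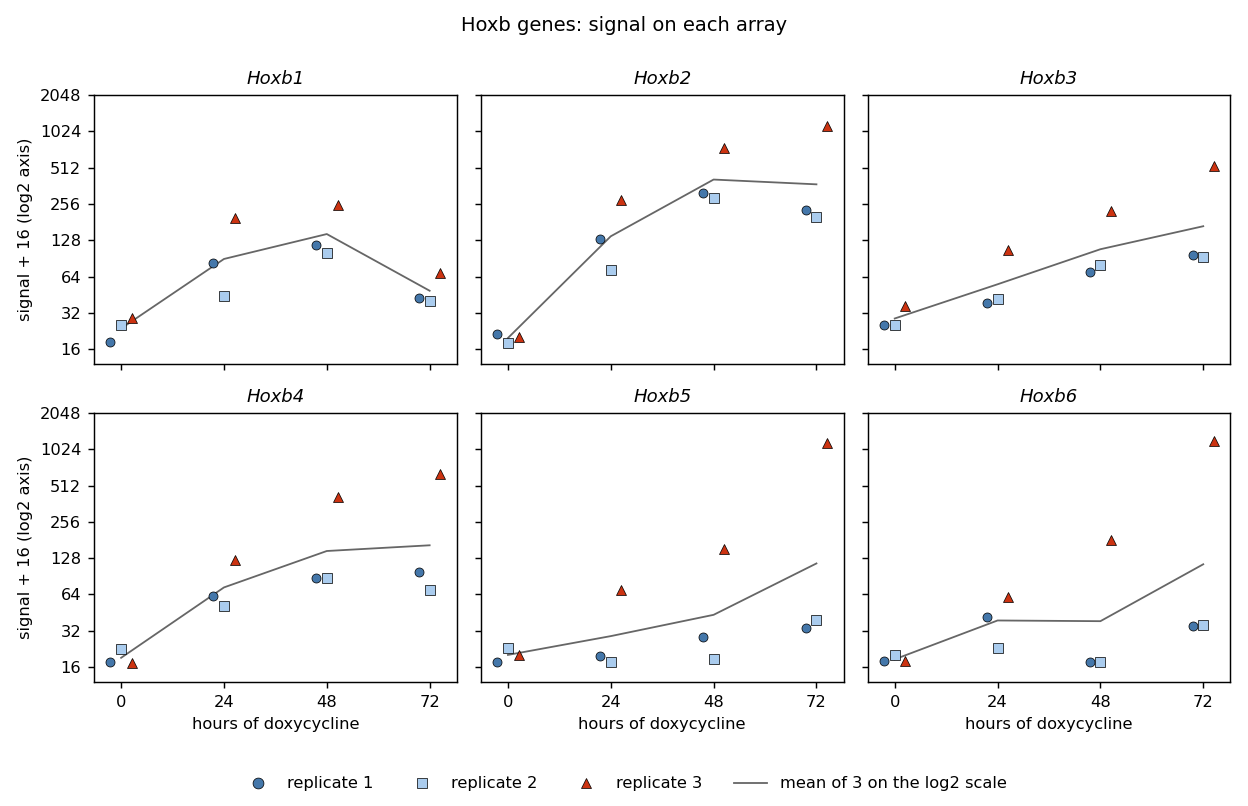
Signal + 16 of Hoxb1 to Hoxb6 on each of the 12 arrays (log2 axis) against hours of doxycycline, with 1 symbol per replicate and a line through the mean of the 3 on the log2 scale. Replicate 3 (triangles) is the highest array at each induced time in all 6 genes, and in Hoxb5 and Hoxb6 the other replicates stay at or below 25.7 in signal while replicate 3 reaches 1141 and 1175 at 72 h.

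In the Hoxa cluster the low-numbered genes rose. Hoxa2, the gene that specifies the second pharyngeal arch and patterns rhombomeres 2 and 3, had signals of 2.43, 1.22 and 4.61 in uninduced cells. It had 18.6, 14.2 and 18.2 at 24 h, 75.4, 39.8 and 42.3 at 48 h, and 65.5, 59.6 and 94.2 at 72 h. The uninduced, 24 h and 48 h groups did not overlap with each other. The differences from uninduced cells were 0.82 ± 0.24 (adjusted p = 0.0440), 1.84 ± 0.24 (adjusted p = 8.89e-05) and 2.23 ± 0.24 (adjusted p = 1.34e-05). The 24 h call was lost in 15 of 22 alternative fits, among them those without any 1 of the uninduced or 24 h arrays (adjusted p from 0.0523 to 0.121). From 24 h to 48 h Hoxa2 rose by 1.02 ± 0.24 (adjusted p = 0.0108), or by 0.79 without replicate 1 of the 48 h arrays (adjusted p = 0.0567).

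Hoxa3, which acts in the third pharyngeal arch and the lower hindbrain, had signals of 17.7, 10.6 and 0.676 in uninduced cells. It had 38.7, 25.3 and 70.0 at 24 h, 76.9, 50.2 and 145 at 48 h, and 55.9, 53.4 and 180 at 72 h. The induced arrays lay above the uninduced ones. Hoxa3 was 2.02 ± 0.46 higher at 48 h (adjusted p = 0.00420) and 2.01 ± 0.46 higher at 72 h (adjusted p = 0.00332), and the 24 h difference was 1.23 ± 0.46 with an adjusted p of 0.105. Without the 4 arrays numbered 3 the 72 h difference was 1.24 (adjusted p = 0.0137). Its 3 other probe sets were mostly dim, with signals from 0.383 to 67.9. The brightest of them gave 37.2, 17.8 and 31.8 in uninduced cells and 24.7, 41.6 and 67.9 at 72 h. In that probe set each induced group overlapped with the uninduced arrays. Averaged over all 4 probe sets the 48 h difference was 0.55 (adjusted p = 0.0599) and the 72 h difference 0.73 (adjusted p = 0.0141).

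The 2 probe sets of Hoxa5, a gene of the neck and upper trunk, disagreed. The brighter one, which the rule took, gave 112, 44.2 and 63.3 in uninduced cells and 77.0, 90.2 and 107 at 72 h. Its groups overlapped at each time, and its differences of 0.15, 0.08 and 0.33 from uninduced cells had adjusted p-values from 0.515 to 0.891. The other gave 2.09, 1.34 and 1.24 in uninduced cells, 72.8, 65.7 and 285 at 24 h, 51.7, 36.6 and 300 at 48 h, and 55.3, 58.0 and 463 at 72 h. In a fit of probe sets in place of genes, the second was 2.89 ± 0.78 higher at 24 h (adjusted p = 0.0390), 2.57 ± 0.78 at 48 h (adjusted p = 0.0235) and 2.96 ± 0.78 at 72 h (adjusted p = 0.00892). All induced arrays of that probe set lay above the uninduced ones, and replicate 3 was the highest at each induced time. The map of the clusters, the main fit and the replicate 3 counts used the brighter probe set, so they do not show the rise of the other.

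The other 6 Hoxa genes were dim and untested. Hoxa4 reached 42.1 on the 48 h array of replicate 3, Hoxa7 reached 35.7 and 31.7 on the 24 h and 48 h arrays of replicate 3, and Hoxa9 reached 59.9 on the 72 h array of replicate 1. Hoxa10, Hoxa11 and Hoxa13 had highest signals of 21.0, 29.6 and 21.0. With no filter on dim genes, Hoxa4 was called at 48 h (1.15, adjusted p = 0.0118) and at 72 h (1.04, adjusted p = 0.0161).

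In the Hoxd cluster, Hoxd8 and Hoxd13 ran on different time courses. Hoxd8, a central gene of the trunk, had signals of 17.7, 12.1 and 4.02 in uninduced cells, 17.8, 19.3 and 52.2 at 24 h, 44.4, 64.7 and 71.4 at 48 h, and 87.3, 82.0 and 228 at 72 h. The 72 h arrays were all above the 48 h arrays, and those were all above the uninduced ones. The differences from uninduced cells were 1.50 ± 0.38 at 48 h (adjusted p = 0.00826) and 2.34 ± 0.38 at 72 h (adjusted p = 0.000330). Its second probe set was 1.04 ± 0.36 higher at 48 h (adjusted p = 0.0430) and 1.66 ± 0.36 higher at 72 h (adjusted p = 0.00281).

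Hoxd13, which shapes the tips of the limbs and the hindmost trunk, peaked at 24 h. Its signals were 16.6, 12.6 and 20.0 in uninduced cells, 99.3, 92.9 and 86.3 at 24 h, 27.5, 23.4 and 31.6 at 48 h, and 29.6, 29.4 and 9.72 at 72 h. The 3 arrays at 24 h lay close together and above all other arrays. Hoxd13 was 1.75 ± 0.24 higher than in uninduced cells at 24 h (adjusted p = 0.000640) and fell by 1.32 ± 0.24 from 24 h to 48 h (adjusted p = 0.00249). None of the 23 alternative fits in which Hoxd13 was tested lost either call. The second Hoxd13 probe set was at most 20.8 on every array. It gave 13.8, 20.1 and 18.8 at 24 h, above its uninduced signals, and 8.53, 19.5 and 20.8 at 48 h. Its 24 h and 48 h arrays overlapped, so a fall without overlap between those times was seen in the brighter probe set alone. Averaged over both probe sets the fall was -0.70 (adjusted p = 0.0148).

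Hoxc13, the paralogue of Hoxd13 in the Hoxc cluster and known for its role in hair and nails, followed the same course at a lower signal. It had 5.72, 19.0 and 4.81 in uninduced cells, 39.8, 36.0 and 48.4 at 24 h, 17.3, 22.8 and 17.3 at 48 h, and 16.1, 17.5 and 13.6 at 72 h. The 24 h arrays were above all others. The rise at 24 h was 1.19 ± 0.23 (adjusted p = 0.00529), and 0.97 with an adjusted p of 0.107 without the 4 arrays numbered 3. From 24 h to 48 h Hoxc13 fell by 0.71 ± 0.23 (adjusted p = 0.0489), a call that was lost in 17 of 23 alternative fits, among them those without any 1 of the 24 h or 48 h arrays (adjusted p from 0.0616 to 0.141). The 2 other group 13 genes analysed, Hoxa13 and Hoxb13, never exceeded the median.

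Hoxc6, a gene of the thoracic level, was called in no comparison. Its signals were 25.3, 18.0 and 48.8 in uninduced cells, 39.4, 27.4 and 14.9 at 24 h, 15.7, 22.7 and 4.81 at 48 h, and 38.7, 41.9 and 32.2 at 72 h. Each induced group overlapped with the uninduced arrays, and the differences of -0.10, -0.61 and 0.25 had adjusted p-values from 0.144 to 0.867.

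The untested Hoxc and Hoxd genes of the central part were mostly brightest on replicate 3 arrays. At 72 h, Hoxc4 gave 20.3, 29.8 and 246, Hoxc5 gave 15.8, 9.69 and 289, and Hoxc8 gave 13.9, 12.9 and 57.3. Hoxd1, a low-numbered gene, gave 12.9, 16.6 and 96.6 at 48 h and 11.8, 15.4 and 112 at 72 h. Hoxd9 gave 27.9, 28.5 and 43.8 at 72 h, above its uninduced signals of 1.37 to 5.77, and with no filter it was called at 48 h (0.89, adjusted p = 0.0125) and at 72 h (1.37, adjusted p = 0.000506). Hoxc9 and Hoxd3 peaked at 30.8 and 32.3, both on the 72 h array of replicate 3. Hoxc10, Hoxd10, Hoxd11 and Hoxd12 had highest signals of 16.3, 11.2, 8.40 and 15.5 and never exceeded the median.

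**Figure D3:**
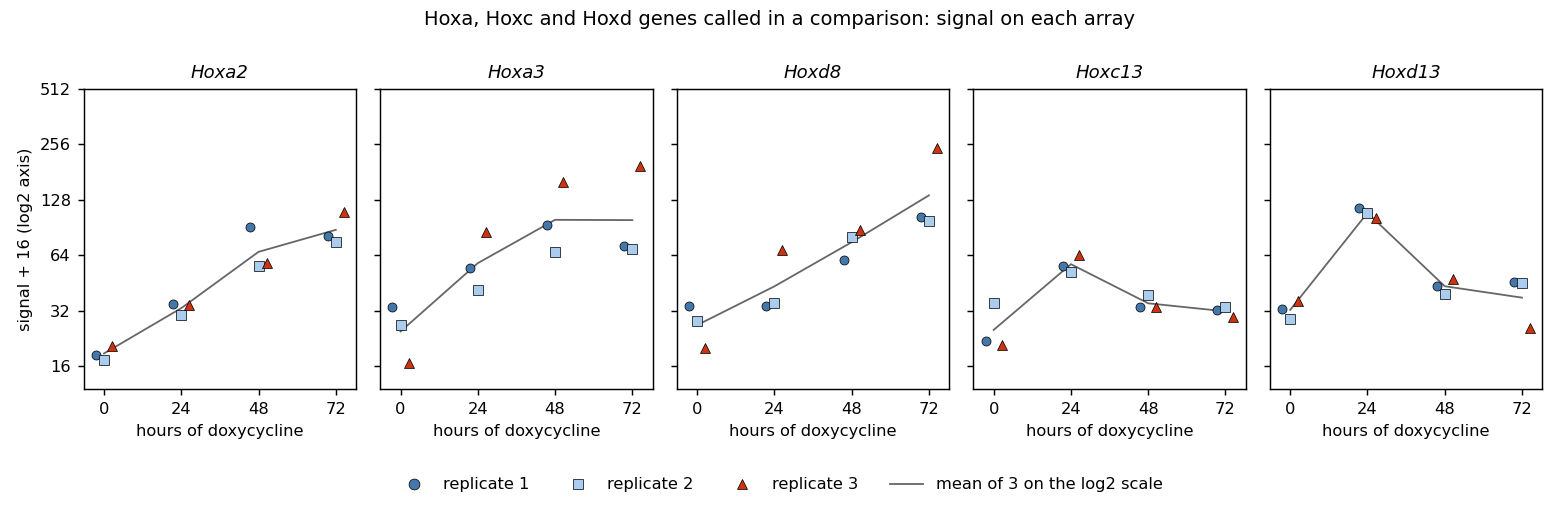
Signal + 16 on each array (log2 axis) against hours of doxycycline for the Hoxa, Hoxc and Hoxd genes that were called in at least 1 comparison, with 1 symbol per replicate and a line through the mean of the 3 on the log2 scale. Hoxa2, Hoxa3 and Hoxd8 lie above the uninduced level at 48 h and 72 h, with 72 h differences of 2.23, 2.01 and 2.34, and Hoxc13 and Hoxd13 peak at 24 h in all 3 replicates.

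Replicate 3 stood apart from replicates 1 and 2 in the Hox clusters after induction. A gene was counted where replicate 3 exceeded the higher of the other 2 arrays of its group by at least 1 on the log2 scale. No Hox gene was counted in uninduced cells. At 24 h, 6 of 33 were counted (18.2%), at 48 h 9 (27.3%) and at 72 h 12 (36.4%). Over all 18193 genes the same count gave 1.39% in uninduced cells, 0.374% at 24 h, 0.412% at 48 h and 0.775% at 72 h. No Hox gene in replicate 3 was below the lower of the other 2 arrays by that margin at any time. Of all genes, 0.577% were so in uninduced cells, 0.813% at 24 h, 0.632% at 48 h and 1.9% at 72 h. The 0 of 33 is thus near the share of all genes, and dim genes have little room to fall on this scale. Hox genes made up 12 of the 141 genes counted at 72 h, or 8.51%. The labels number the arrays within each group and do not say whether arrays of one number came from one culture, and these shares were not tested.

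The 12 genes counted at 72 h were Hoxa3, Hoxb2, Hoxb3, Hoxb4, Hoxb5, Hoxb6, Hoxb9, Hoxc4, Hoxc5, Hoxc8, Hoxd1 and Hoxd8. At 48 h they were Hoxb1 to Hoxb6, Hoxc4, Hoxc5 and Hoxd1, and at 24 h Hoxa7, Hoxb1, Hoxb2, Hoxb3, Hoxb5 and Hoxc4. Hoxb6 and Hoxb5 ranked 1 and 2 of 18193 genes at 72 h, with 5.06 and 4.88 above the higher of the other arrays. By class, 4 of 7 genes of groups 1 to 3, 7 of 12 of groups 4 to 8 and 1 of 14 of groups 9 to 13 were counted at 72 h. At that time the difference of replicate 3 from the mean of the other arrays grew along Hoxb, from 0.73 for Hoxb1 to 2.43 for Hoxb2, 2.48 for Hoxb3, 2.96 for Hoxb4, 4.98 for Hoxb5 and 5.08 for Hoxb6. It was 0.21 for Hoxb7 and 2.10 for Hoxb9.

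**Figure D4:**
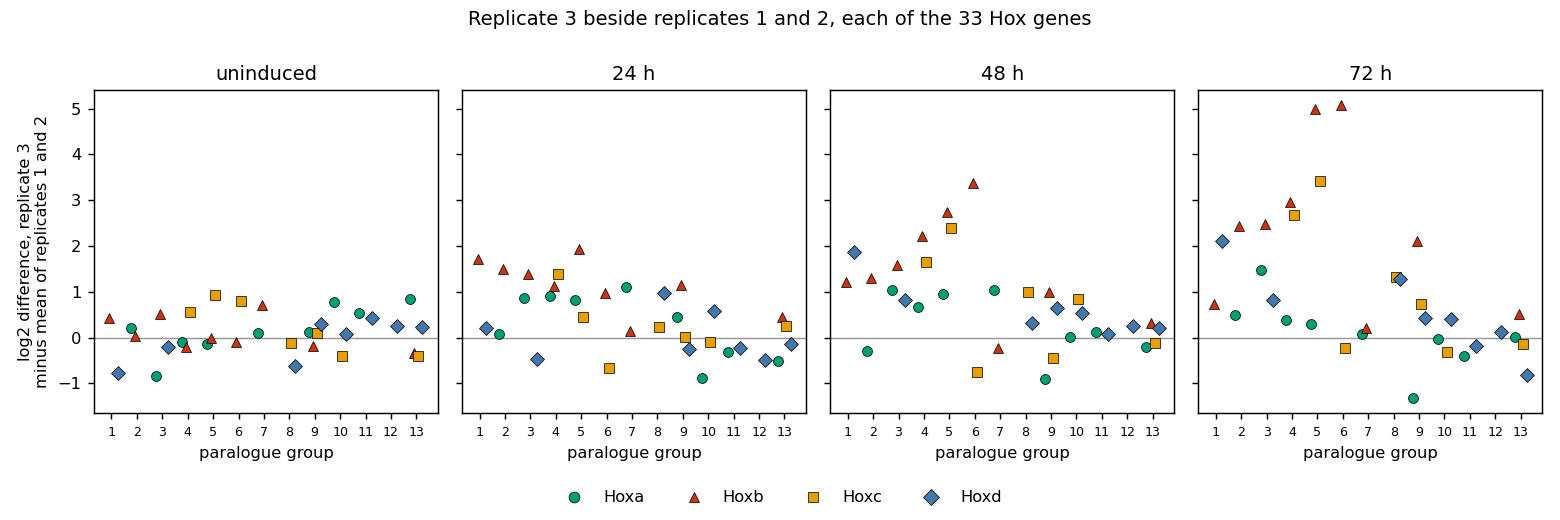
Log2 difference of replicate 3 from the mean of replicates 1 and 2 in the same group, for each of the 33 Hox genes, against paralogue group, with 1 panel per time and 1 symbol per cluster. The uninduced points scatter around 0, and by 72 h the largest differences, 4.98 and 5.08, are those of Hoxb5 and Hoxb6, while groups 10 to 13 lie between -0.82 (Hoxd13) and 0.51 (Hoxb13).

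The calls were fitted again without replicate 3. Without the 4 arrays numbered 3, the same 7 Hox genes were called higher at 48 h and the same 6 at 72 h. At 24 h the count fell from 5 to 3 (Hoxb2, Hoxb4 and Hoxd13), and from 24 h to 48 h it rose from 3 to 5, with Hoxa2, Hoxb2, Hoxb3 and Hoxd8 higher and Hoxd13 lower. Without replicate 1 at 24 h, the array that stood apart, 4 genes were called at 24 h, and Hoxa2 was not (0.78, adjusted p = 0.0523).

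Other genes also differed between replicate 3 and the other arrays, and those below were picked after their values were seen. In the list of retinoic acid pathway genes, 4 of 16 were higher in replicate 3 by at least 1 at 72 h, against 0.775% of all genes. Rarb, a receptor that is itself a direct target, gave 104, 88.0 and 1391. Cyp26a1, the enzyme that breaks retinoic acid down and is induced by it, gave 10.9, 22.7 and 435. Dhrs3, a retinaldehyde reductase, gave 16.4, 5.87 and 101, and Crabp2, a binding protein, gave 1368, 1308 and 4578. The summed signal of the list was 7191, 8203 and 16445 at 72 h and 1343 to 1478 in uninduced cells. Crabp1 alone, at 4768, 5945 and 9164, made up most of the 72 h sums. The median log2 difference of replicate 3 from the other arrays at 72 h was 0.18 over the list.

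Of 13 endoderm markers, 6 were higher in replicate 3 by that margin at 72 h (Sox17, Dab2, Lama1, Sox7, Col4a1 and Gata6), with summed signals of 1306, 1069 and 3209. Of all genes, 0.775% were higher by that margin at 72 h. Of Afp and Ttr, defining markers of visceral endoderm, Afp was at most 2.48 on those arrays. Ttr was highest in replicate 3, at 31.0, where the median of the array was 23.8, and lower in replicates 1 and 2. On the uninduced array of replicate 3, Ttr gave 35.7. The 20 fibroblast and feeder markers had 0 genes higher by that margin at 72 h, which is near the share of all genes. Their sum in replicate 3 was the lowest of the 3 (1191, 1182 and 747), and Fbln1, the brightest of them, gave 308, 376 and 171. Within that list Col1a1 and Dcn were at most 40.2 and 20.5 at 72 h, while Pdgfra gave 70.9, 64.8 and 95.4 and Postn 84.9, 83.5 and 18.3. Against uninduced cells, 6 of 10 tested fibroblast and feeder markers were called higher and 1 lower at 48 h, and 3 higher and 1 lower at 72 h. Of 10 endoderm markers tested, 5 were called higher at 48 h and 6 at 72 h, and without the 4 arrays numbered 3 it was 3 at both times. Over all genes tested, 22.6% were called higher and 14.0% lower at 48 h, and 25.3% and 18.6% at 72 h. Neither list was tested against these shares, and markers that passed the filter through an induced group alone were bound to be brighter there. The sums of the 14 neuron markers were alike at 72 h (36460, 37412 and 36036), with a median log2 difference of replicate 3 from the other arrays of -0.02. Single neuron markers went either way, such as Nefl (5650, 5975 and 8139) and Ina (4018, 3898 and 1833). At 48 h the neuron sum of replicate 3 was lower (20556, 21296 and 13619). In such bulk samples, more cells of a type and more RNA per cell cannot be told apart. The part of these genes and cells in the Hox differences was not tested.

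The lists that follow were chosen with earlier results of these data known. The background for each count below is the share of all genes tested, 8.12% higher and 3.18% lower at 24 h, 22.6% and 14.0% at 48 h, and 25.3% and 18.6% at 72 h, and no list was tested against it. List genes that passed the filter through an induced group alone, such as Meis1, Meis2 and Pknox2, were bound to be brighter there. Most TALE cofactors that were tested rose. Of 7 tested, 5 were called higher at 24 h and 6 at 48 h and at 72 h, with 0 lower and medians of 1.28, 2.23 and 2.22 over the tested cofactors. Meis2 signals were 26.7, 28.3 and 25.8 in uninduced cells, 307, 363 and 568 at 24 h, 1395, 1192 and 1433 at 48 h, and 1659, 1480 and 1964 at 72 h. Its differences from uninduced cells were 3.27 ± 0.24, 4.98 ± 0.24 and 5.31 ± 0.24, with adjusted p-values of 1.40e-05, 1.50e-07 and 7.75e-08. Meis1 was 3.54 ± 0.33 higher at 48 h (adjusted p = 6.98e-06) and 3.92 ± 0.33 at 72 h (adjusted p = 1.79e-06). Pknox1, named after its values were seen, was the tested cofactor with no call, at 0.08 ± 0.29 at 72 h (adjusted p = 0.842). No cofactor was higher in replicate 3 by 1 after induction, where 0.374%, 0.412% and 0.775% of all genes were at 24, 48 and 72 h. Without the 4 arrays numbered 3, 1 of 8 tested cofactors was called at 24 h and 5 at 48 h and at 72 h.

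Of the retinoic acid genes, 11 were tested: 4 were called higher at 24 h, 5 at 48 h and 6 at 72 h, and 0, 2 and 2 lower (medians 0.86, 0.56 and 0.78). Crabp1 had the largest rise at 72 h, from 97.7, 164 and 114 in uninduced cells to 4768, 5945 and 9164 (5.53 ± 0.31, adjusted p = 1.41e-07). Crabp2 was 4.01 ± 0.52 higher at 72 h (adjusted p = 6.37e-05). Rarg, the receptor that is bright in ES cells, fell from 533, 456 and 545 to 122, 103 and 53.7 at 72 h (-2.33 ± 0.40, adjusted p = 0.000464). Rara fell by 1.13 ± 0.41 (adjusted p = 0.0410), a call that was lost in 10 of 23 alternative fits.

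**Figure D5:**
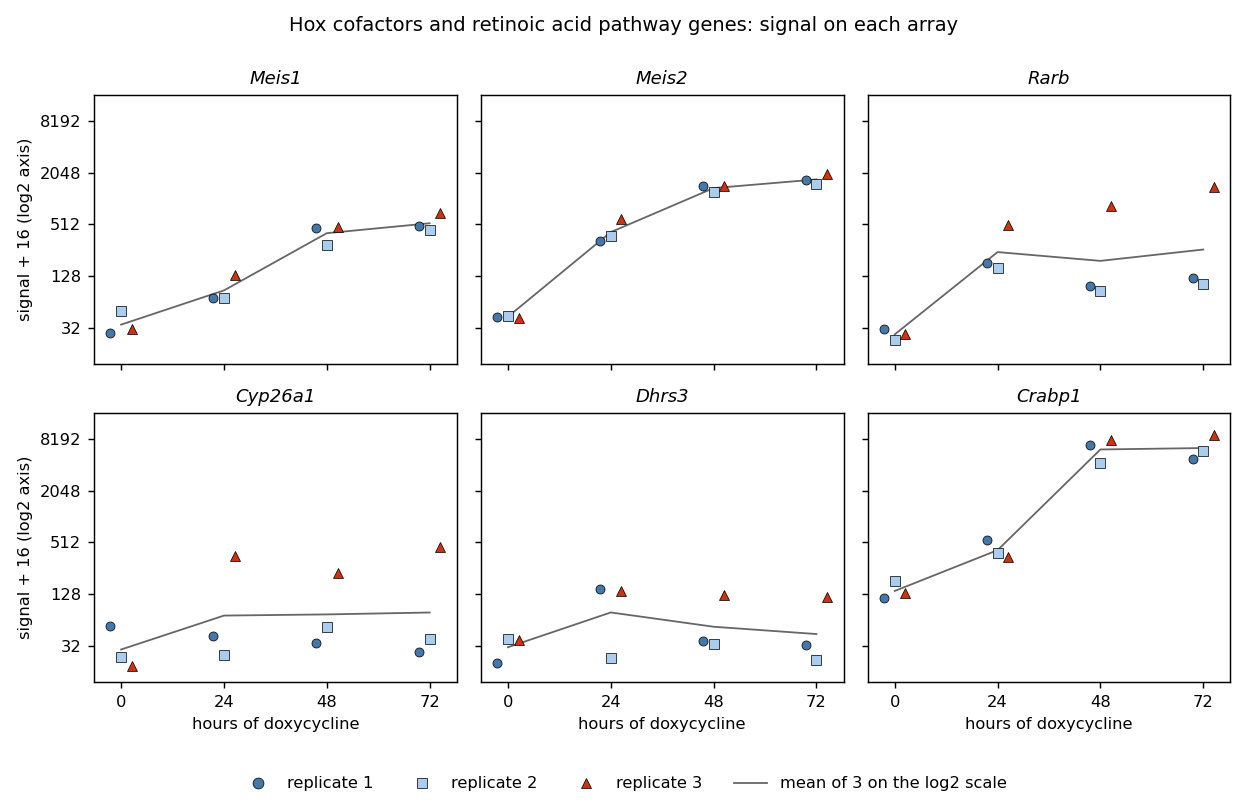
Signal + 16 on each array (log2 axis) against hours of doxycycline for the cofactors Meis1 and Meis2 and the retinoic acid pathway genes Rarb, Cyp26a1, Dhrs3 and Crabp1, with 1 symbol per replicate and a line through the mean of the 3 on the log2 scale. Meis1, Meis2 and Crabp1 rise in all 3 replicates, while Rarb and Cyp26a1 are highest in replicate 3 at each induced time, at 1391 and 435 at 72 h.

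The Cdx factors, which act upstream of the central Hox genes, stayed dim: Cdx1, Cdx2 and Cdx4 had highest signals of 20.1, 30.6 and 17.6 over the 12 arrays, each in uninduced cells. Of the 12 genes measured in the caudal axis list, 2 were tested and both were called higher at 48 h and 72 h. Greb1 rose by 3.48 ± 0.33 at 72 h (adjusted p = 5.23e-06), and Nkx1-2 by 1.00 ± 0.37 (adjusted p = 0.0449). The Nkx1-2 call at 72 h was lost in 13 of 22 alternative fits, among them the one without the 4 arrays numbered 3 (adjusted p = 0.136).

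Of 9 hindbrain and spinal cord regulators tested, 3 were called higher at 24 h and 7 at 48 h and at 72 h, with 0 lower (medians 0.64, 1.83 and 2.41; 8.12%, 22.6% and 25.3% of all genes were higher). Apart from Epha4 and Gbx2, those tested passed the filter through an induced group alone, so they were bound to be brighter there. Without replicate 1 of the 24 h arrays, 1 was called lower at 72 h. Isl1, a factor of motor and sensory neurons, was 6.58 ± 0.31 higher at 72 h (adjusted p = 7.75e-08), and Nr2f1 was 5.30 ± 0.33 higher (adjusted p = 2.22e-07). Of 4 forebrain and midbrain regulators tested, 1, 2 and 1 were called higher at 24, 48 and 72 h (medians 1.10, 0.57 and 0.78). At 72 h the count was 4 of 6 tested without the 4 arrays numbered 3, and 2 of 4 without replicate 1 of the 24 h arrays. Lhx2, a forebrain factor, gave 496, 459 and 152 at 72 h, and Otx2, a factor of forebrain and midbrain, gave 172, 178 and 15.0. Both were picked after their values were seen, and both were lowest in replicate 3. At 72 h the median log2 difference of replicate 3 from the other arrays' mean was -0.41 over the measured forebrain and midbrain genes. It was -0.51 over the measured hindbrain and spinal cord genes, so both lists were lower in replicate 3. Any link to the Hox genes was not tested.

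Of the 17 Polycomb subunits tested, 2 were called higher and 1 lower at 24 h, and 6 higher and 4 lower at both later times (medians -0.05, 0.01 and 0.10), where 22.6% and 25.3% of all genes were higher and 14.0% and 18.6% lower. Without the 4 arrays numbered 3, 1 was higher and 0 lower at 24 h, 4 and 2 at 48 h, and 4 and 3 at 72 h. Without replicate 1 of the 24 h arrays, 6 were higher and 6 lower at both later times. Phc2 and Bmi1, subunits of the first Polycomb complex, rose by 3.18 ± 0.44 (adjusted p = 0.000103) and 2.92 ± 0.41 (adjusted p = 0.000104) at 72 h. Eed, a core subunit of the second complex, fell by 1.67 ± 0.41 (adjusted p = 0.00566), and Phc1 by 1.64 ± 0.35 (adjusted p = 0.00210). Averaged over all probe sets, the Eed call was lost (adjusted p = 0.0514). Among 9 trithorax and demethylase genes, 0 were called higher with limma, and 0, 2 and 3 lower, in the 24, 48 and 72 h comparisons. Without replicate 1 of the 24 h arrays, 1, 2 and 3 were called higher and 1, 3 and 3 lower, and without the 4 arrays numbered 3 the lower counts were 0, 0 and 2. The largest fall was that of Wdr5 (-1.51 ± 0.27 at 72 h, adjusted p = 0.000695).

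Of the 5 nearest protein-coding genes on each side of each cluster, 40 in all, 33 were tested: 2 were called higher and 1 lower at 24 h, and 5 higher and 5 lower at 48 h and at 72 h, where 22.6% and 25.3% of all genes were higher and 14.0% and 18.6% lower. The median over those tested stayed within -0.02 and 0.07 in the 3 comparisons with uninduced cells. Between the outermost Hox genes, 31 other genes were annotated, 5 had a probe set and 0 were tested.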

How the data were processed

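Total RNA was labelled as biotinylated cRNA and hybridised to Affymetrix Mouse Genome 430 2.0 arrays, per the labels. The authors deposited MAS5 signals, which are linear intensity values per probe set, per the submitters' processing notes. Of 45101 probe sets, 34945 had a single symbol. Signals were taken as log2(signal + 16), and each gene was read from its brightest probe set on average.

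Groups were compared in 5 contrasts with limma 3.58.1 in R 4.3.3 (4 group means, 12 arrays, moderated variance with an intensity trend, Benjamini-Hochberg adjustment over 11806 genes). The procedure was run on simulated data with independent noise on each array. Deviations shared by arrays of the same number were not simulated, so that run cannot show how the procedure handles them. Full values are given for Hox genes called in any comparison and for the highest member of each cluster, and from other lists for the largest rises and falls among called genes. Members and lists were chosen with earlier results of these data known. Alternatives covered the pseudocount, filter, normalization, probe sets, arrays and replicate numbers. Motifs were searched as exact letters in RefSeq start windows.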

Additional observations from a re-analysis of the deposited data

How the results depend on the processing

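The 21 Hox calls were refitted under 24 alternatives per comparison, in 485 fits, of which 434 kept the call, 51 lost it and 0 changed its direction. Fits in which the gene failed the filter and was not tested are left out of these counts. The number of Hox genes called at 24 h was 5, against 2 with a pseudocount of 64, 1 with a filter at percentile 75, 3 with only the 6 arrays compared and 3 without the 4 arrays numbered 3. With percentile 75, which tests fewer genes, it was 1 at 48 h, 1 at 72 h and 0 from 24 h to 48 h. Without the arrays numbered 3 the step from 24 h to 48 h gave 5. From 48 h to 72 h the 6 arrays gave 1 and array weights gave 2. For these others the cause was not tested. Leaving out 1 array at a time gave 3 to 6 genes at 24 h, 6 to 7 at 48 h, 6 to 7 at 72 h, 1 to 3 from 24 h to 48 h and 0 from 48 h to 72 h. Array weights moved the 72 h difference of Hoxb4 from 3.10 to 2.06. The wider filter, chosen after seeing the data, gave 4, 7, 6, 2 and 0. With the replicate block the counts were 6, 7, 7, 4 and 0, with Hoxb4 at 24 h (adjusted p = 0.0358), Hoxb1 at 72 h (adjusted p = 0.0200) and Hoxb2 from 24 h to 48 h (adjusted p = 0.0206) gained. Deviations of arrays with the same number correlated at 0.0308 to 0.577, over 0.1 in 16 of 18 pairs (median 0.16), against 3 of 36 pairs of different number (median -0.09). Of the 12 arrays, 11 correlated best with their own number, a hint from the data. Because 2 pairs were not over 0.1 and the labels name no shared culture, the numbers were not taken to pair the arrays. Genes under the array's median have only weakly measured levels.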

Other observations

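Hoxb5os, which runs antisense to Hoxb5 and was picked after its values were seen, gave 4.81, 9.78 and 39.4 at 48 h and 14.8, 22.9 and 104 at 72 h in replicates 1, 2 and 3. Of the other antisense genes measured, Hoxa11os was at most 17.9 on every array. One Hoxd3os1 probe set was at most 26.6, and its other gave 14.2, 12.5 and 61.0 at 72 h.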
